A study of Mus musculus with 2 samples.

Results

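The 42 genes described here are type I interferon-stimulated antiviral genes, taken by name from a fixed list of symbols. Ddx58 was also taken under its newer symbol Rigi. The rule used no value of these samples, but the list was drawn up with earlier results of these data known. A gene was given a value when it had a probe set annotated to that gene alone. Of the 42, 39 had such a probe set, among 18193 genes on the array that did. Isg15, Oas1g and Ifi44 had none and are not reported by value. Where a gene had several probe sets, the one with the brightest mean log2 signal stood for it. A probe set was called measured when at least 1 array exceeded a floor of 10.3 signal units, set at the 40th percentile of all signals. Of the 39 genes, 38 were measured, all 38 on both arrays, and Mx2 lay below the floor on both (7.76 with P25 and 2.14 with medium).

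The samples were antigen-presenting cells (APCs) from the spleen of 10-week-old female C57BL/6 mice, described as wild type. They were kept overnight in culture with CD4+ T cells that carry the transgenic P25 T cell receptor. The stimulated group received P25, the peptide which that receptor recognises, and the control group received medium alone, so both groups held the same kind of T cell and, by the labels, differed in the peptide alone. APCs were then enriched, and RNA mixed from 3 independent experiments was hybridised to 1 Affymetrix array per group. There is thus no replicate spread, no SD and no test, and every ratio below describes these 2 arrays. The ratios of separate probe sets of one gene were compared instead, for 5293 genes with at least 2 probe sets above the floor on each array. The log2 ratios of the 2 brightest differed with an SD of 0.58. Probe sets of one gene read the same RNA on the same arrays, so this SD holds no variation between cultures or arrays. It is not an error of the P25 ratio.

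Type I interferons signal through the receptor IFNAR and the kinases JAK1 and TYK2 to a complex that includes STAT2 and IRF9 and binds the interferon-stimulated response element (ISRE) in the promoters of its targets. Interferon-γ signals through JAK1 and JAK2 to the gamma-activated site (GAS) in its target promoters, and many antiviral genes respond to both kinds of interferon. The products bind or cut viral RNA, sense it, block the entry or release of viruses, or mark proteins with the ubiquitin-like modifier ISG15.

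Promoters are shown first because the ISRE is what these genes are known to share. The RefSeq promoter table (build GRCm38.p6) holds 250 bases before and 50 bases after each annotated start, and 32 of the 42 genes matched it. The ISRE core (GAAA, any 2 bases, GAAA), searched on both strands, was found for 15 of those 32 genes (46.9%), against 3.99% of the 27025 genes in the table and 3.44% of its 32851 promoters. The GAS core TTCNNNGAA, which reads the same on both strands, was found for 8 of 32, or 25%, against 9.55% of all genes. Both motifs were present for 4 of the 32 genes and neither for 13. Of the ISRE genes, 9 held more than 1 match in a single promoter, where overlapping matches were counted separately. Some matches overlapped each other or a GAS match. The shares of all genes with more than 1 match, with both motifs or with neither were not computed, so these counts have no background. The sequences below are those of the 5 genes with the highest ratios among measured genes that held the ISRE core. They run 5′ to 3′ on the gene's strand, with the core in capitals (TTTC, any 2 bases, TTTC where it lies on the opposite strand). For the first 4 they cover the 250 bases before the start, and for Eif2ak2, whose match lies after the start, 30 bases round it. The printed window of Ifit3 and a part of that of Oas3 fall inside the longest annotated span of the gene.
Ifit3 (chr19:34583279-34583528, plus strand): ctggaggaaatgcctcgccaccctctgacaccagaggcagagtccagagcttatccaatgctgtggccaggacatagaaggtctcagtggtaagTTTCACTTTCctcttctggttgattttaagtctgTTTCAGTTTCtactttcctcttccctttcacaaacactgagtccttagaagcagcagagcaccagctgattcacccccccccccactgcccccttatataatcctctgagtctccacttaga
Ifit1 (chr19:34640639-34640888, plus strand): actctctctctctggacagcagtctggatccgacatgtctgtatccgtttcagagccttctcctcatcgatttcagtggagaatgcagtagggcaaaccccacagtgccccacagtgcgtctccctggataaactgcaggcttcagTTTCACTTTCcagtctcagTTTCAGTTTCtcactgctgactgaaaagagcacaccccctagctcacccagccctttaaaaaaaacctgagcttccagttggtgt
Oas3 (chr5:120777660-120777909, minus strand): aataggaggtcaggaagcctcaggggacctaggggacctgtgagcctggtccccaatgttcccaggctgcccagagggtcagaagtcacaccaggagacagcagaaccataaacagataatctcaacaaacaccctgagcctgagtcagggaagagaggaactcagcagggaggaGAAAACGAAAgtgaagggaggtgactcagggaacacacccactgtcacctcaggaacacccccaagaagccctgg
Bst2 (chr8:71537473-71537722, minus strand): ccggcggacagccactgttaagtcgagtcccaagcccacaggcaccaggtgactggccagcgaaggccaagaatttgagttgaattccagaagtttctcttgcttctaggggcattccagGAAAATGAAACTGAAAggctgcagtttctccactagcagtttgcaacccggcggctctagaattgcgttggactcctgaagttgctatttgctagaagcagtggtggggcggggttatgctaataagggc
Eif2ak2 (chr17:78882535-78882564, minus strand): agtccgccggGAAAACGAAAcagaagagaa

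The pair of matches in Ifit3 begins at positions -156 and -122 from the start, and that in Ifit1 at -104 and -85. In Bst2 the 2 ISRE matches overlap, and the first of them also overlaps a GAS match. Of 26 ISRE matches over the 32 genes, 18 lay wholly before the start and 8 after it. A match is a string of letters and was not tested as a binding site.

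**Figure D1:**
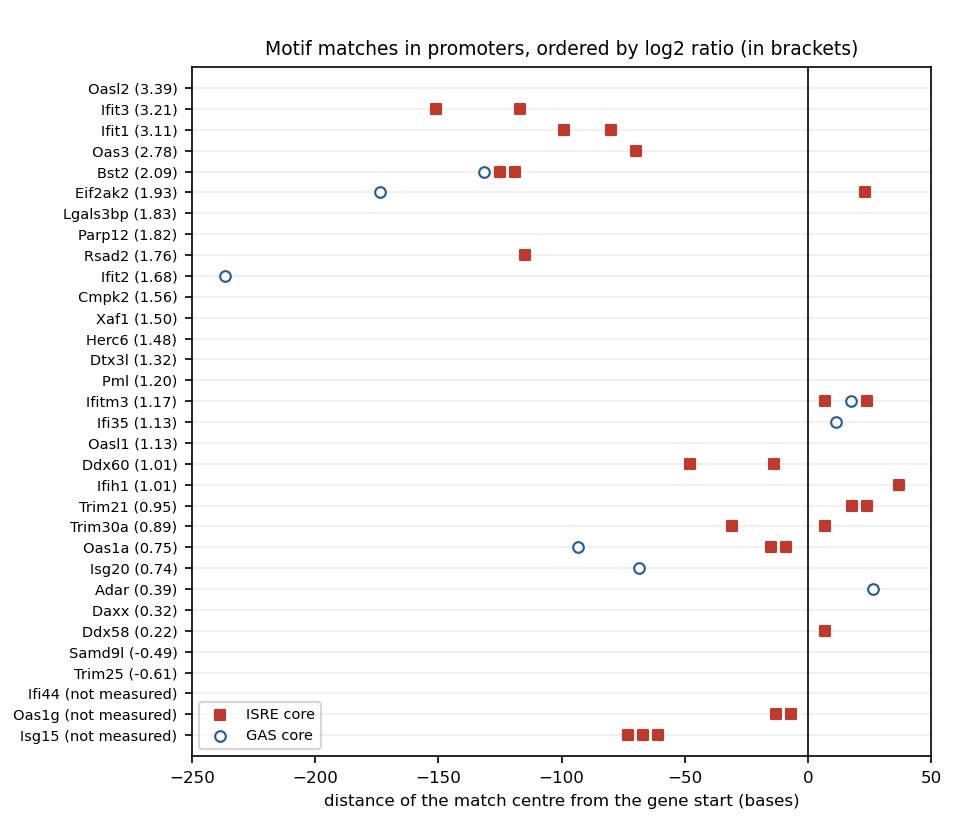
Position of each ISRE core (filled squares) and GAS core (open circles) match, as the distance of its centre from the gene start in bases, for the 32 genes in the promoter table, ordered by the log2 ratio of P25 over medium given in brackets. Matches occur among genes of high and of low ratio, and Oasl2, the gene with the highest ratio (3.39), has none in this window.

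Most of the antiviral genes were higher with P25. Of the 38 measured, 27 (71.1%) were at least 2-fold higher, against a background of 9.43% of all 12897 measured genes, and none was at least 2-fold lower, against 7.22%. Their median ratio was 2.52-fold (log2 1.34), where the median log2 ratio of all measured genes was 0.02. At least 4-fold higher were 8 of the 38, against 1.36% of all genes, and 36 of 38 had a log2 ratio above 0, against 51.4%. Ranked by ratio among all measured genes, 7 of the 38 stood in the top 1% (129 genes) and 19 in the top 5% (645 genes). The high share was not limited to dim probe sets: with genes banded by mean signal, the count at least 2-fold higher was 4 of 4 under 50 units, 4 of 5 from 50 to 100, 9 of 10 from 100 to 200, 4 of 7 from 200 to 400 and 6 of 12 at 400 or more, while the share of all genes in these bands ran from 7.29% to 12%. Over the 38 genes the log2 ratio nevertheless was lower at higher mean log2 signal (Spearman's rho -0.48, Pearson's r -0.53), where rho over all measured genes was 0.04; the genes share both arrays, so these are descriptions.

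**Figure D2:**
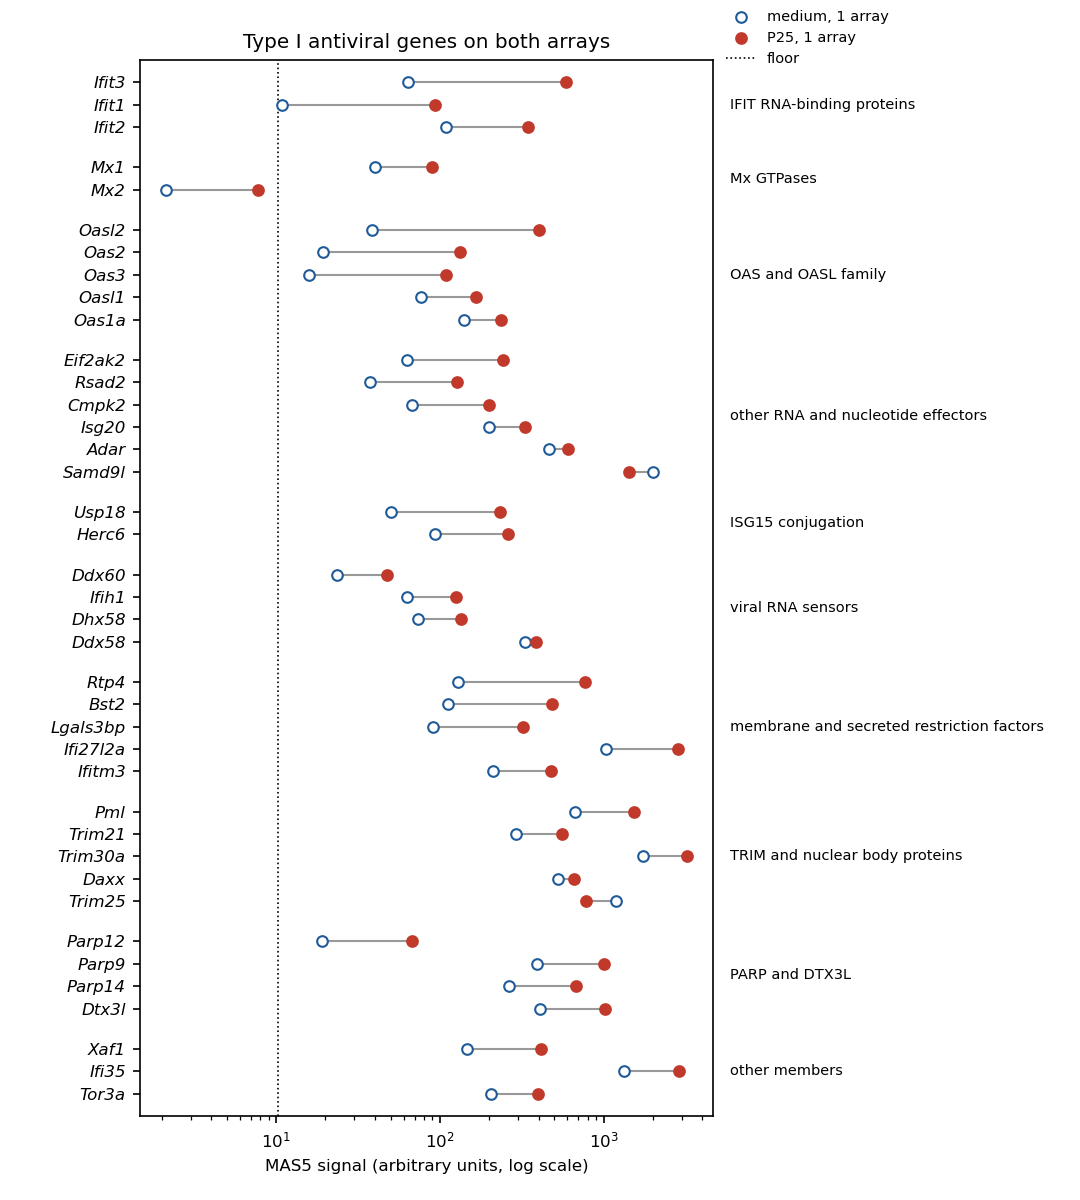
MAS5 signal (arbitrary units, log scale) of the 39 genes on the medium array (open circles) and the P25 array (filled circles), 1 array each, grouped by the role of the product. The dotted line is the floor of 10.3, and lines join the values of a gene. The P25 value lies to the right in every gene except Samd9l and Trim25, and Mx2 lies below the floor on both arrays.

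The IFIT proteins bind viral RNA that lacks the cap structure of the host's own messages and block its translation. Ifit3 had a signal of 589.0 with P25 and 63.8 with medium, or 9.24-fold. Ifit1 had 93.3 and 10.8, or 8.61-fold, and its medium value stood just above the floor. Ifit2 had 346 and 108, or 3.19-fold. All 3 genes were past 2-fold, in the order Ifit3, Ifit1 and Ifit2, and the log2 ratios of the first pair (3.21 and 3.11) differed by less than the SD between probe sets of one gene. With a floor at the 60th percentile (38.6 units) Ifit1 came to a log2 ratio of 1.27, below Ifit2 at 1.68, so its place depends on where dim signals are set.

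The oligoadenylate synthetases make 2′-5′-linked oligoadenylates on sensing double-stranded RNA, which switch on RNase L, while the OASL proteins are relatives with other functions. Oasl2 had the highest ratio of all 38 genes, with 404 against 38.6, or 10.5-fold, which was rank 15 of all measured genes. Oas2 (133 against 19.3) was 6.90-fold higher and Oas3 (109 against 15.9) was 6.87-fold higher, at adjacent ranks of 35 and 36. Oasl1 was 2.18-fold higher (166 against 76.2). Oas1a was within 2-fold at 1.68-fold (237 against 141). So 4 of the 5 genes were past 2-fold. Oas1a belongs to a cluster of near-identical copies that includes Oas1g and Oas1b, and which of them its probe set detects was not tested; the probe set of Oas1b, outside the 42 genes, was 1.43-fold lower (25.1 against 35.9). The medium signals of Oasl2, Oas2 and Oas3 were dim, and their ratios depended on the floor. Oasl2 came to a log2 ratio of 1.73 with a floor at the 75th percentile, below Rtp4 (2.57), Ifit3 (2.27) and Bst2 (1.98), so its first place depends on that choice. Oas2 and Oas3 were lower at higher floors too, with log2 ratios of 1.78 and 1.496 at the 60th percentile, still past 2-fold, and 0.12 for Oas2 at the 75th. The Mx proteins are dynamin-like GTPases that trap viral components. Mx1 was 2.25-fold higher (89.996 against 39.96), and Mx2 gives no ratio. Whether these mice make a working Mx protein was not tested.

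ISG15 is joined to target proteins by a chain of enzymes and removed by the protease USP18, which also damps signalling at the type I receptor. Usp18 was 4.63-fold higher (233 against 50.2). Herc6, the main ISG15 ligase of the mouse, was 2.80-fold higher (261 against 93.3), and its 4 probe sets had folds from 2.03 to 3.64. Of 5 other measured genes around this pathway, Ube2l6, the conjugating enzyme, was 2.20-fold higher (74.0 against 33.6), and Uba7, the activating enzyme, was 1.25-fold higher (510 against 407). The ligase genes Herc3, Herc4 and Arih1, whose action on ISG15 was not tested, had log2 ratios of 0.41, -0.24 and -0.19. Of these 7 genes Usp18, Herc6 and Ube2l6 were thus past 2-fold, and the activating enzyme and the 3 other ligase genes were not. Ube2l6 was no longer past 2-fold with the 60th percentile floor, where the count among the 5 other genes went from 1 to 0.

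The RNA sensors lay near 2-fold or under it. Ddx60, a helicase linked to RIG-I signalling, was 2.01-fold higher (47.7 against 23.7), and Ifih1, which encodes the sensor MDA5, was also 2.01-fold higher (126 against 62.6). Dhx58, which encodes the regulator LGP2, was 1.82-fold higher (135 against 73.8) on its brightest probe set, 2.08-fold on the second and at least 2.54-fold on the third, which was at the floor with medium. Ddx58, which encodes RIG-I, had 386 with P25 and 332 with medium, or 1.16-fold, and its other probe sets had log2 ratios of -0.09 and -0.34. It was the only one of the 17 genes with several measured probe sets whose probe sets had both signs, so the direction of Ddx58 is not settled by these arrays. Ifih1 and Ddx60 lie on the threshold itself: with one 2% trimmed mean for both arrays they came to log2 ratios of 0.92 and 0.93, and Ddx60 came to 0.30 with the 60th percentile floor.

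A further 6 genes act on RNA or nucleotides. Eif2ak2 encodes PKR, a kinase that stops translation on binding double-stranded RNA, and was 3.82-fold higher (242 against 63.3), though its other probe sets gave 2.11-fold and 1.88-fold. Rsad2 encodes viperin, which makes a chain-terminating nucleotide, and was 3.39-fold higher (127 against 37.4), with log2 ratios from 1.76 to 2.01 over 3 probe sets. Cmpk2, a mitochondrial nucleotide kinase gene next to Rsad2 on chromosome 12, was 2.95-fold higher (199 against 67.5). These 3 genes were past 2-fold on their brightest probe sets and the other 3 were not. The exonuclease gene Isg20 was 1.67-fold higher (330 against 198). Adar, whose enzyme edits adenosine to inosine in double-stranded RNA, was 1.31-fold higher (606 against 463), with 1.54-fold and 1.55-fold on its other probe sets. Samd9l, a growth and virus restriction factor, had 1435 with P25 and 2011 with medium, or 1.40-fold lower, on its single probe set.

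All 5 genes of membrane or secreted products were past 2-fold. Rtp4, a chaperone of receptors that also restricts RNA viruses, was 5.96-fold higher (772 against 129.6). Its second probe set was dim (14.1 against 0.82) and at the floor with medium, where it gave at least 1.37-fold. Bst2, or tetherin, which holds budding virus at the cell surface, was 4.26-fold higher (480 against 113). Lgals3bp, a secreted glycoprotein that binds galectins, was 3.56-fold higher (323 against 90.7), Ifi27l2a was 2.75-fold higher (2829.5 against 1030.5), and Ifitm3, which blocks the fusion of virus with endosomes, was 2.25-fold higher (476 against 211). Outside the 42 genes, its relatives Ifitm1 and Ifitm2 had log2 ratios of 0.93 and -1.21, so the 3 related genes did not share one direction.

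The PARP and DTX3L genes lay close together. Parp9 and Dtx3l encode a pair of proteins that form a complex, and Parp14 a mono-ADP-ribosyltransferase; all 3 are neighbours on chromosome 16. Their signals were 1010 against 390.3 for Parp9, 1020 against 409 for Dtx3l and 679 against 266 for Parp14. The ratios were 2.59-fold, 2.49-fold and 2.55-fold, and the 2 probe sets of Dtx3l and of Parp14 had log2 ratios of 1.32 and 1.51, and of 1.35 and 1.54. These 3 neighbours therefore differed from each other by less than the SD between probe sets of one gene. Parp12 was 3.54-fold higher (67.6 against 19.1) from a dim probe set and came to a log2 ratio of 0.81, under 2-fold, with the 60th percentile floor. Neighbours did not always match: Oasl2 and Oasl1, next to each other on chromosome 5, had log2 ratios of 3.39 and 1.13, and Ifit2 and Ifit3 on chromosome 19 had 1.68 and 3.21.

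Of the TRIM and nuclear body genes, 4 of 5 were within 2-fold. Pml, the organiser of PML nuclear bodies, was 2.29-fold higher (1530 against 668), with 1.72-fold and 2.24-fold on its other probe sets. Trim21, a cytosolic antibody receptor, was 1.93-fold higher (560 against 290), and Trim30a was 1.85-fold higher (3216 against 1741) on its brightest probe set and 2.63-fold on the other. Daxx, which resides in the same bodies as PML, was 1.25-fold higher (656 against 524). Trim25, the ubiquitin ligase that acts on RIG-I, had 780 with P25 and 1191 with medium, or 1.53-fold lower, and all 3 of its probe sets had log2 ratios below 0, from -0.72 to -0.20. Trim25 and Samd9l were the 2 genes of the 38 that were lower with P25, and both stayed below 0 under each of the 13 alternative settings. A change of floor alone cannot alter a sign.

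Among the last 3 measured genes, Xaf1, an apoptosis regulator, was 2.82-fold higher (415 against 147), and Ifi35 was 2.19-fold higher (2895 against 1324), with log2 ratios from 1.07 to 1.14 over 3 probe sets. Tor3a was 1.94-fold higher (396 against 204), just under the threshold. Genes within 2-fold numbered 11 in all, of which 6 were between 1.5-fold and 2-fold higher, and 8 genes lay between 2-fold and 2.5-fold higher. Counts at the threshold therefore moved with the scaling. Median scaling gave both arrays the same median over the probe sets above the floor on at least 1 array. With it, 31 of 38 were at least 2-fold higher (Dhx58, Trim21, Trim30a and Tor3a were added), and the background then was 12.4%. That scaling raised the median of all genes to 0.15 and split the calls over all genes into 1597 higher and 653 lower, against 1216 and 931 as deposited.

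Separate probe sets mostly gave like ratios. The 17 genes with several measured probe sets included 7 whose probe sets were all at least 2-fold higher, 4 whose probe sets were all within 2-fold, and 6 with probe sets on both sides of 2-fold. Over all 66 measured probe sets of the 38 genes, 44 were at least 2-fold higher, against 9.15% of all measured probe sets with 1 gene symbol, and 6 had a log2 ratio below 0 (all 3 of Trim25, 2 of Ddx58 and that of Samd9l). For the 16 genes with at least 2 probe sets clear of the floor on each array, the log2 ratios of the 2 brightest differed with an SD of 0.35, and the widest gap of these pairs was 0.86 for Eif2ak2. The third probe set of Eif2ak2 lay farther off still, and its log2 ratios ran from 0.91 to 1.93. The remaining 21 genes rest on 1 measured probe set each, and 17 of them were at least 2-fold higher.

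**Figure D3:**
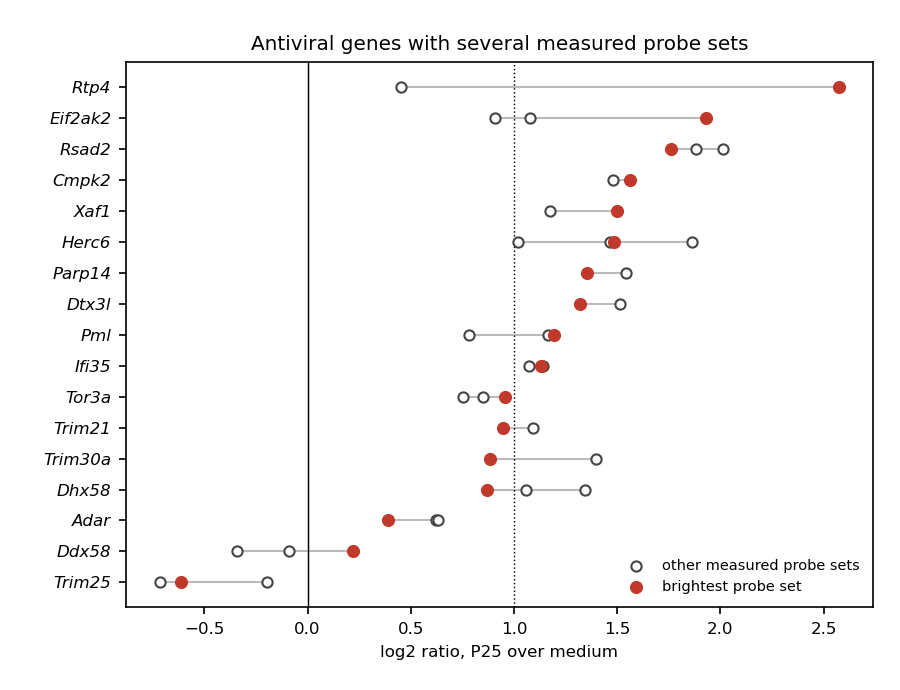
Log2 ratio of P25 over medium of every measured probe set, for the 17 genes with several, ordered by the ratio of the brightest probe set (filled circles; open circles are the others). The solid line marks 0 and the dotted line 2-fold. Only Ddx58 has points on both sides of 0, and the low point of Rtp4 is a lower bound from a dim probe set.

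Ratios were then set beside the presence of the ISRE core. Of the 29 measured genes in the promoter table, the 13 with a match had a median ratio of 2.25-fold (9 of 13 at least 2-fold higher) and the 16 without one had 2.39-fold (11 of 16). At least 4-fold higher were 4 of the 13 with a match and 1 of the 16 without one. Oas2, Rtp4 and Usp18 (log2 ratios of 2.79, 2.57 and 2.21) were also past 4-fold but did not match the promoter table, so this split leaves them out. Their ranges overlapped widely, from 0.22 to 3.21 against -0.61 to 3.39 in log2 ratio. Outside the 42 genes, 44 of 356 measured genes with the core (12.4%) were at least 2-fold higher, against 932 of 10045 without it (9.28%). For the GAS core the shares were 10.5% (91 of 867 genes) and 9.28% (885 of 9534 genes). These shares are descriptions of one window around each start, and their difference was not tested.

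The genes that make, receive and relay the interferon signal shared no single direction. Of 9 type I interferon genes with their own probe set, 8 did not exceed the floor on either array, including Ifnb1 (8.64 with P25 and 9.08 with medium), and the remaining one, Ifnz, had 12.9 and 13.1. Ifng was also below the floor (10.0 and 7.84). Signals this low show neither presence nor absence of the transcripts after overnight culture. All 6 receptor genes had lower signals with P25, and none reached 2-fold as deposited. Ifnar1 was lowest at 1.95-fold lower (200 against 391), and Il10rb and Ifnlr1 were also 1.95-fold lower. Ifngr2 was 1.74-fold, Ifngr1 1.34-fold and Ifnar2 1.21-fold lower. The lowest 3 lie on the threshold: over the other scalings Ifnar1, Il10rb and Ifnlr1 came as low as -1.05, -1.12 and -1.05 in log2 ratio. Among 7 measured genes of signalling and feedback, Socs1 was highest, 16.4-fold higher (295 against 17.9), and Jak1 lowest, 1.72-fold lower (2208 against 3808). Stat2 and Irf9, which encode parts of the ISRE-binding complex, were within 2-fold as deposited, at 1.81-fold and 1.66-fold higher. Over the other scalings Stat2 came as high as 1.01 in log2 ratio, past 2-fold, and Irf9 as high as 0.88. Of 7 interferon regulatory factor genes Irf1 (6.32-fold) and Irf7 (4.69-fold, 431 against 91.8) were past 2-fold and the other 5 were not, from Irf2 at -0.24 to Irf8 at 0.54 in log2 ratio. Of 13 genes of sensors and adaptors that lead to interferon, 3 were at least 2-fold higher and 1 lower. Zbp1, a sensor of Z-form nucleic acids, stood at 8.79-fold (1014.5 against 115), Ikbke at 2.61-fold and Tlr7 at 2.43-fold. Tlr9 was 2.03-fold lower from a dim probe set (12.9 against 26.2). Its log2 ratio of -1.02 came as high as -0.87 over the other scalings, within 2-fold. The background for all counts in this paragraph is 9.43% of all measured genes at least 2-fold higher and 7.22% at least 2-fold lower.

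A further list of interferon-stimulated genes outside the 42, which shares some genes with the lists above, gave lower ratios. Of its 40 measured genes 7 were at least 2-fold higher (17.5%, against the background of 9.43%) and 1 was lower, with a median of 1.31-fold. The 7 were Ifi47 (9.47-fold), Zbp1, Irf7, Plscr1 (4.66-fold), Phf11d (2.47-fold), Ube2l6 and Ogfr (2.10-fold), and Ifitm2 was the lowest at 2.31-fold lower. The guanylate-binding proteins and the p47 GTPases, families best known as interferon-γ targets, had higher median ratios than the antiviral genes. All 6 and all 5 measured genes of these families were past 2-fold, with medians of 8.82-fold and 10.6-fold. The first family ran from Gbp3 (3.03-fold) to Gbp6 (45.3-fold), with Gbp2b at the floor with medium and at least 4.53-fold higher, and the second from Ifi47 (9.47-fold) to Iigp1 (124.7-fold). The highest antiviral gene, Oasl2, lay between those medians (10.5-fold). The lowest p47 GTPase, Ifi47, was above every antiviral gene but Oasl2 as deposited, though its log2 ratio (3.24) was close to that of Ifit3 (3.21). That order is not fixed: over the other scalings Ifi47 came as low as 3.04, and Ifit3 as low as 3.12. The lists differ in size, and no difference between them was tested.

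**Figure D4:**
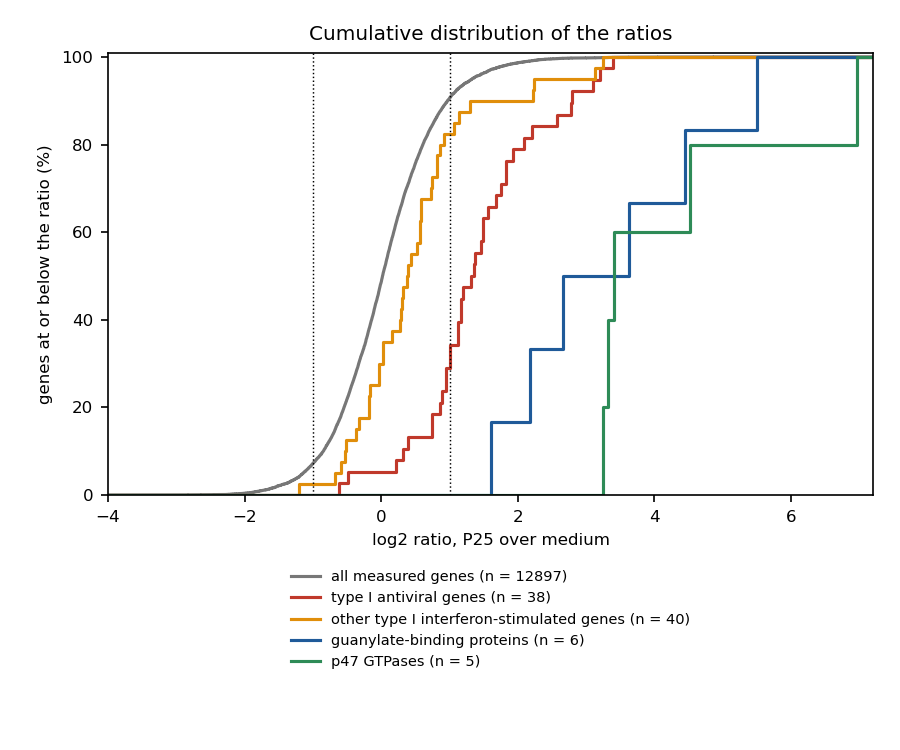
Cumulative share of genes (%) at or below each log2 ratio of P25 over medium, for all 12897 measured genes, the 38 type I antiviral genes, 40 other interferon-stimulated genes, 6 guanylate-binding proteins and 5 p47 GTPases. Dotted lines mark 2-fold. The antiviral genes lie to the right of all genes and of the other interferon-stimulated genes, and the GTPase families lie farther right.

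**Figure D5:**
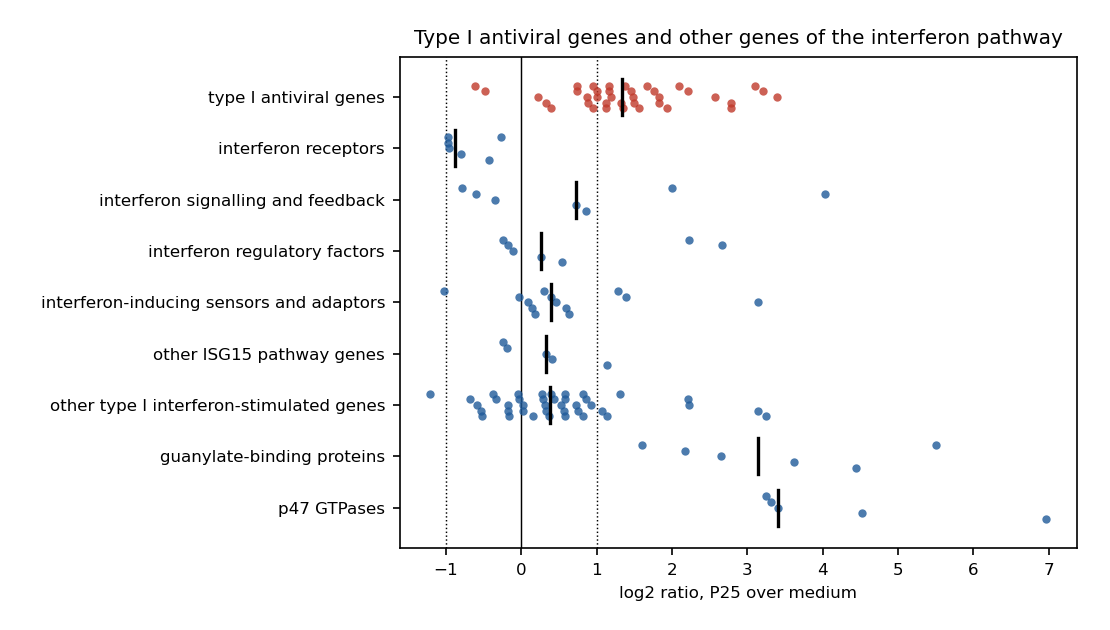
Log2 ratio of P25 over medium of each measured gene of the antiviral group and of the interferon pathway lists. Points are genes, spread vertically for legibility, thick bars are medians, and dotted lines mark 2-fold. The 6 receptor genes all lie between -0.97 and -0.27, while the antiviral genes run from -0.61 to 3.39.

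Markers of the cell types that the enriched APCs could hold also differed between the arrays, and their part in the antiviral ratios was not tested. The background for the counts below is 9.43% of all measured genes at least 2-fold higher and 7.22% at least 2-fold lower. All 11 B cell markers were measured, with a summed signal of 24096 with P25 and 34142 with medium, and 3 were at least 2-fold lower. Of 14 macrophage and monocyte markers 11 were measured, with sums of 1420 and 3341 and 8 at least 2-fold lower, and C1qa, C1qc and Cd163 were below the floor on both arrays. Conventional dendritic cell markers (9 of 10 measured, sums of 518 and 930.2, 4 at least 2-fold lower and Zbtb46 5.72-fold higher) and neutrophil markers (9 of 10 measured, sums of 6973 and 12913, 7 lower) had lower sums with P25 too. Plasmacytoid dendritic cells are a rich source of type I interferon. Of their 8 markers, all measured, 2 were at least 2-fold higher, Klk1 (2.45-fold) and Bst2, which is itself one of the antiviral genes. That count was 1 with the median over probe sets, with the dimmest measured probe set, and with the 75th percentile floor, where 6 were measured. The 2 at least 2-fold lower were Siglech (24.1 with P25 against 50.8) and Ccr9 (48.1 against 116). The sums were 7758 and 8594, of which Ly6d alone gave 4109 and 4143, and Spib 1757 and 2716. These sums therefore say little about Siglech and Ccr9. Of 13 T cell markers 9 were measured, with sums of 517 and 1418, of which Cd2 alone gave 339 and 1139.7, and 3 were at least 2-fold lower. Cd3e, Cd3d, Cd4 and Themis were below the floor on both arrays, while Cd3g (21.6 with P25 against 11.1) and Cd8a (37.2 against 28.9) were above it on both. In a bulk sample fewer cells of a type and less RNA per cell cannot be told apart.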

How the data were processed

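The deposited values are MAS5 signal intensities on a linear scale, as their range shows, from the GCOS software, per the submitters' processing notes. Their versions and scaling target are not stated there. MAS5 corrects for mismatch probes, which leaves low signals imprecise. Each array holds 45101 probe sets, 64 of them controls. Gene names came from the platform's annotation, updated by Entrez number through RefSeq gene tables (GRCm38.p6): 34945 had 1 gene symbol (204 without a RefSeq match), 932 several and 9160 none, and only the first were used. Median signals were 18.0 (P25) and 18.4 (medium), and precision is limited by having 1 array per condition. No scan date was used. With 1 array per condition, batch and treatment cannot be told apart. Over 18 hybridization controls the log2 ratio had a median of -0.15 and an SD of 0.10.

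Groups came from the treatment label. Signals under the floor were set to it, so a ratio against a floored signal is only a bound, and genes were counted past 2-fold. No p-value was computed. The members, lists and rules were chosen with earlier results of these data known. Named were all genes of the list and, in the other lists, the highest and lowest or those counted in a sentence. Symbols without a probe set of their own are not analysed here. The calculation (Python 3.11.15, pandas 2.3.3, statsmodels 0.14.6) was tested on simulated data.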

Additional observations from a re-analysis of the deposited data

How the results depend on the processing

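Over 13 other floors, filters, scalings and probe set choices, the median log2 ratio of the antiviral genes ran from 0.96 to 1.49 (1.34 as reported), and 25 to 31 genes were at least 2-fold higher except with a floor at the 75th percentile (122 signal units), where 15 of 33 measured genes were. A threshold of 3-fold gave 13 genes and one of 1.5-fold gave 33. Set against the median of all genes under the same setting, the median of the antiviral genes was 0.92 to 1.33 higher. Of the 27 genes past 2-fold, 15 stayed past it under every alternative that measured them, and 23 under all 5 scalings. None of the 489 alternative gene values changed the sign of a gene past 2-fold, and 19 differed from the reported value by more than the probe set SD. A floor cannot change the sign of a ratio, so the alternative floors could not give such a change. Ddx58, within 2-fold, came to -0.09 with the median over probe sets and with the dimmest measured probe set. With quantile normalization Ifi35 and Pml came to 0.88 and 0.99. Median scaling, over the probe sets above the floor on at least 1 array, put the all-gene median log2 ratio at 0.15. Scaling to the same spike-in level put it at 0.16. The share of calls that were higher moved with it (1597 higher and 653 lower after median scaling, 1611 and 638 after spike-in scaling, against 1216 and 931). Alternatives for the other lists were added after seeing the data; the median of the guanylate-binding proteins went from 3.14 to 4.04 without a floor. Dim medium signals limit many of the genes: at the 75th percentile floor the ratio (log2) of Rsad2 went from 1.76 to 0.05, that of Oas2 from 2.79 to 0.12, that of Oasl2 from 3.39 to 1.73, that of Usp18 from 2.21 to 0.93, that of Ifih1 from 1.01 to 0.04, that of Cmpk2 from 1.56 to 0.71 and that of Oasl1 from 1.13 to 0.45, while Ifit1, Mx1, Oas3, Parp12 and Ddx60 were not measured. No paired analysis was possible because each group has 1 sample.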
